A study of Homo sapiens with 6 samples.

Results

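The BCL2 family decides whether a cell opens its mitochondrial outer membrane and enters apoptosis. The group described here holds 10 of its genes, chosen by symbol: BCL2, BCL2L1, MCL1, BAX, BAK1, BID, BAD, BCL2L11, BCL2L12 and BCL2L13. All 10 have a row among the 17104 genes of the deposited counts. The transcripts were sequenced from cultured HBMEC, labelled as an endothelial cell line of human brain microvessels. The tested libraries came from cells after OGD/R, in which oxygen and glucose are withdrawn and then given back (3 libraries), and the others from cells in normal culture, named CON in the titles and control here (3 libraries). Neither the hours without oxygen and glucose nor the hours after their return are stated in the labels. The labels also do not tell whether replicates were grown apart, and a p-value here covers only the spread from library to library, which may be technical.

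The proteins of this family act by binding one another. BCL2, BCL-xL (from BCL2L1) and MCL1 hold the pore-forming proteins BAX and BAK in check, and BH3-only proteins such as BIM (from BCL2L11), BID and BAD respond to stress by engaging either the guardians or the pore formers. Once BAX or BAK has opened the outer membrane, cytochrome c leaves the mitochondria and caspases are activated. Much of this control works on the proteins, through cleavage of BID, phosphorylation of BAD and rapid turnover of MCL1, and transcript counts do not show it. The long and short splice forms of BCL2L1 and of MCL1, which have opposite effects on survival, cannot be told apart in counts per gene.

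After OGD/R, the pore-former BAX and the divergent family member BCL2L12 were higher, and the guardian MCL1 and the BH3-only gene BCL2L11 were lower. The sizes were modest, from a fall of 21.1% for BCL2L11 to a rise of 24.2% for BCL2L12. The other 6 members, among them BCL2 and BAK1, did not pass the test. Of the 10 members 2 were called higher and 2 lower by edgeR's quasi-likelihood test (Benjamini-Hochberg adjusted p under 0.05). Over all genes 19.7% were called, 10.2% as higher and 9.48% as lower. The median absolute log2 fold change was 0.16 over the 10 members and 0.15 over all genes. The members thus held changes in both directions, of a size common among the genes measured.

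The libraries held 31048662 to 34484647 counts in the OGD/R group and 32107917 to 33607821 in the control group. The cell type in the labels was checked against marker genes. Of 15 endothelial markers 6 had a value here, with summed levels of 282 to 294 CPM after OGD/R and 277 to 293 CPM in control. PECAM1, VWF, KDR and ERG were among the 9 with none. The similar sums held changes in both directions. CDH5 was called higher by edgeR (18.1 CPM after OGD/R, 10.3 CPM in control). ROBO4 (3.79 CPM after OGD/R, 6.36 CPM in control) and MMRN2 (0.21 CPM after OGD/R, 0.72 CPM in control) were called lower. Of 15 epithelial markers 10 had a value, with sums of 3059 to 3114 CPM after OGD/R and 2498 to 2724 CPM in control. The keratin genes KRT8, KRT18 and KRT7 made up most of these sums, and KRT8 was at 1555 CPM after OGD/R and 1235 CPM in control. Lists for pericytes, astrocytes, fibroblasts and leukocytes summed to at most 17.8 CPM in any library. The epithelial sum was thus higher after OGD/R, with 4 of the 10 markers called higher (the 3 keratins and ELF3) by edgeR, while CDH1, CLDN4, ESRP1, ESRP2 and MUC1 had values below 0 that did not pass. The part of the epithelial markers in the results below was not tested. In bulk RNA, a change in the share of cells that express a gene and a change in RNA per cell cannot be told apart.

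Promoter sequences are shown for the called members only, whose start regions differ in the motifs they hold. The windows are the 250 bases before an annotated start, from RefSeq on GRCh38.p14, where 9 of the 10 members, all but MCL1, had an entry. Capitals mark matches, on either strand, to any of 7 motifs: the GC box GGGCGG, the CCAAT box CCAAT, the E-box CACGTG, the hypoxia response core ACGTG (which lies within each E-box), the FOXO core GTAAACA, the amino acid response core TGATGNAA and the E2F core TTTNNCGC. The BAX window (chr19:48954625-48954874, plus strand) and the BCL2L11 window (chr2:111120664-111120913, plus strand) each precede the gene's only listed start. BCL2L12 has 2 listed starts, with windows at chr19:49664892-49665141 and chr19:49665683-49665932 on the plus strand.
BAX: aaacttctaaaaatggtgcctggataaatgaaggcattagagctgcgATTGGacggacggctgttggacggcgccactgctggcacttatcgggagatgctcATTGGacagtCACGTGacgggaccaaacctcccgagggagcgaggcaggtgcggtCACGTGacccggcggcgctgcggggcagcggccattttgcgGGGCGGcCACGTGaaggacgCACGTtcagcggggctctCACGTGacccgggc
BCL2L11: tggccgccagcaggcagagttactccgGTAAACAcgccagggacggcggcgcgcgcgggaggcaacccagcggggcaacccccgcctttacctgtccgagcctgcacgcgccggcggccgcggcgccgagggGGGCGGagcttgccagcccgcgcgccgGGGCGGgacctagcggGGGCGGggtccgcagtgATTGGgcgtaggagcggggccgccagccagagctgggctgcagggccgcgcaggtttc
BCL2L12, start 1: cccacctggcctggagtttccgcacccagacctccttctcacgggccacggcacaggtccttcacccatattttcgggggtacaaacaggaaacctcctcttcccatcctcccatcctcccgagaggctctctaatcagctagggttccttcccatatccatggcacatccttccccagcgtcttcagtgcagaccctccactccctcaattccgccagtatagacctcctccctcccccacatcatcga
BCL2L12, start 2: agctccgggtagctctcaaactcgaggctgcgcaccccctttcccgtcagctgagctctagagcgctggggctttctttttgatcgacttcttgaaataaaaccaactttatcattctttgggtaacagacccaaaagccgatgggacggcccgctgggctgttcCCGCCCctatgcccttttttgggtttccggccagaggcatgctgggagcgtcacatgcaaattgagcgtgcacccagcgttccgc
The BAX window held 4 copies of CACGTG, 2 of CCAAT and 1 of GGGCGG. The hypoxia response core matched 9 times there, counting each E-box on both strands, so 1 match lay outside the E-boxes, and 18.5% of all windows hold that core. Of 35116 promoter windows of the same length, 6.34% held at least 1 copy of CACGTG, and 5 windows held at least 4, a count made after the BAX copies were seen. The BCL2L11 window held 3 copies of GGGCGG, 1 of CCAAT and 1 of GTAAACA, which occur in 42.6%, 32.0% and 2.98% of all windows. The first BCL2L12 window held none of the 7 motifs, and the second held 1 copy of GGGCGG. Members that were not called hold some of the same motifs. The BAK1 window held 2 copies of GGGCGG and 1 of CCAAT. The windows of BID starts 2 and 5, but not 1, 3 and 4, each held 1 copy of CACGTG. The BCL2 window held none of the 7 motifs. A link between the motifs and the changes was not tested. A match is a string of letters and is not evidence that a factor binds there.

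Among the guardians of the group, MCL1 was the most abundant and the one called lower. MCL1 (ENSG00000143384), a short-lived protein that binds BAK and BIM, had 320, 343 and 323 CPM in OGD/R replicates 1, 2 and 3, against 388, 400 and 377 CPM in control replicates 1, 2 and 3. Every OGD/R library lay below every control library. The means were 329 ± 12.2 CPM after OGD/R and 389 ± 11.4 CPM in control (SD, n = 3 each), a log2 fold change of -0.24 ± 0.04 (SE, edgeR adjusted p = 1.19e-05). MCL1 stayed called under the 17 alternative analyses, with log2 fold changes from -0.27 to -0.22.

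BCL2L1 (ENSG00000171552), the gene of BCL-xL, lay close to the threshold. It had 123, 130 and 126 CPM in OGD/R replicates 1, 2 and 3, against 134, 146 and 134 CPM in control replicates 1, 2 and 3. The groups did not overlap, yet the fitted value of -0.12 ± 0.05 had an edgeR adjusted p of 0.0533. Once trends with transcript length and GC were taken out of each library it passed, at -0.15 and an adjusted p of 0.00507. It missed by more without control replicate 2, at -0.08 and an adjusted p of 0.312. Of its annotated exon bases, 43.0% overlap exons of any other gene. The largest share is with ABALON, a gene on the opposite strand. Strand use in the counting is not stated, so how reads in the shared bases were assigned is not known.

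BCL2 (ENSG00000171791), the founding guardian of the family, had 19.1, 16.1 and 16.9 CPM in OGD/R replicates 1, 2 and 3, against 18.8, 17.7 and 18.8 CPM in control replicates 1, 2 and 3. The OGD/R libraries spanned the control libraries. Its value of -0.09 (95% interval -0.28 to 0.10) did not pass, with an edgeR adjusted p of 0.601, and it was -0.0019 after the length and GC correction. BCL2 had the fewest counts per kilobase of the members, and the interval was wide enough to hold a change as large as that of MCL1.

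**Figure D1:**
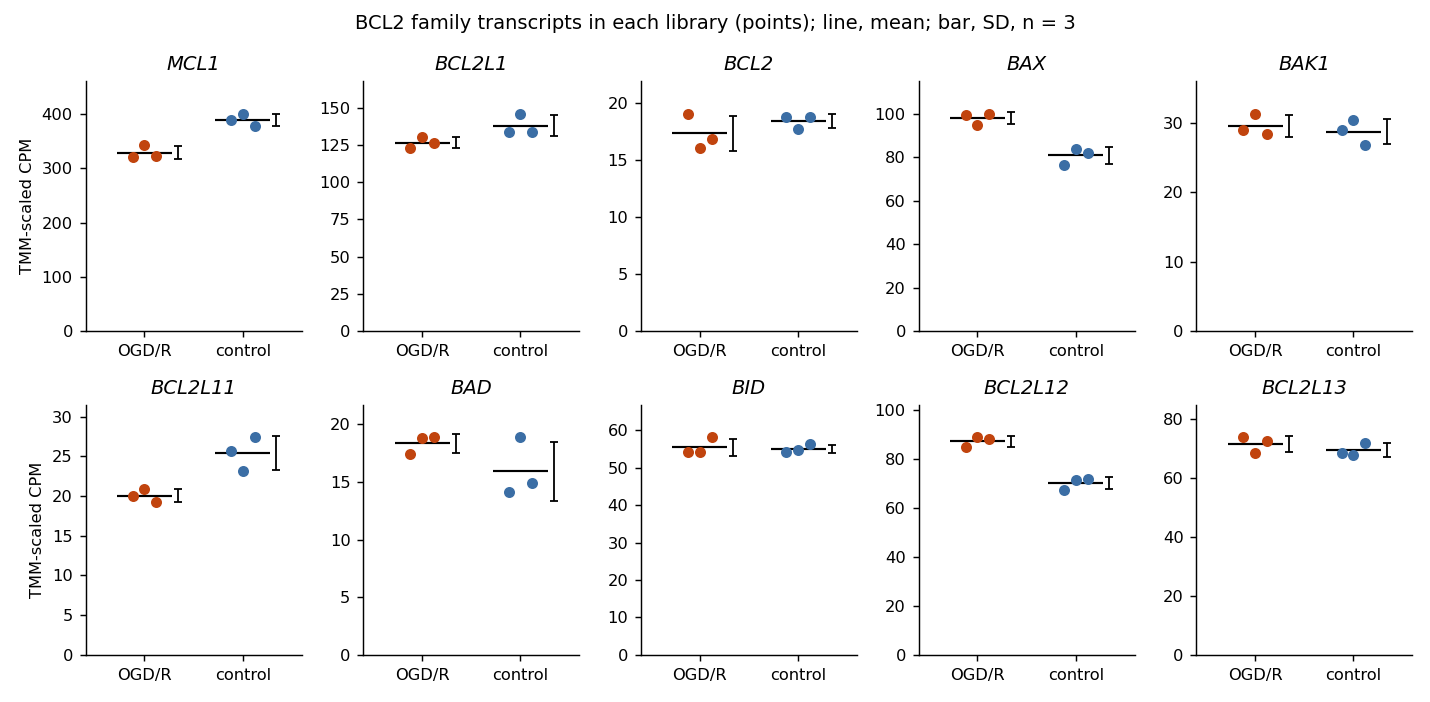
Levels of the 10 BCL2 family transcripts in each of the 6 libraries, as TMM-scaled CPM on axes that start at 0; points are libraries, horizontal lines are group means and bars are the SD (n = 3). The OGD/R points lie apart from the control points for MCL1, BCL2L1, BAX, BCL2L11 and BCL2L12 and overlap them for the other 5 genes.

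The pore formers did not behave alike in their calls. BAX (ENSG00000087088), a mostly cytosolic protein that moves to mitochondria when activated, had 99.4, 95.04 and 100.1 CPM in OGD/R replicates 1, 2 and 3, against 76.6, 84.0 and 81.9 CPM in control replicates 1, 2 and 3. The lowest OGD/R library stood above the highest control library. The means were 98.2 ± 2.74 CPM after OGD/R and 80.8 ± 3.79 CPM in control (SD, n = 3 each), a log2 fold change of 0.28 ± 0.05 (SE, edgeR adjusted p = 3.84e-05).

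BAX has a short transcript, and in these libraries fold change moved with transcript length. Spearman's rho between a library's deviation and transcript length, across 10848 protein-coding genes, was -0.28, -0.33 and -0.23 in OGD/R replicates 1, 2 and 3 and 0.44, 0.04 and 0.29 in control replicates 1, 2 and 3. After the length and GC correction BAX was at 0.18 (edgeR adjusted p = 0.00234), over 1.5 times smaller and still called. The part of length in the remaining value was not tested.

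BAK1 (ENSG00000030110), which encodes the pore former that sits in the outer membrane, had 28.99, 31.3 and 28.3 CPM in OGD/R replicates 1, 2 and 3, against 28.96, 30.3 and 26.8 CPM in control replicates 1, 2 and 3. The groups overlapped over most of their range. Its value was 0.04 (95% interval -0.11 to 0.19, edgeR adjusted p = 0.791), so a rise as large as the one fitted for BAX lay outside its interval. The difference between BAX and BAK1 was not itself tested.

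The BH3-only members also differed in what passed. BCL2L11 (ENSG00000153094) encodes BIM, a potent activator of apoptosis that binds the guardians and can engage BAX directly. It had 19.9, 20.9 and 19.2 CPM in OGD/R replicates 1, 2 and 3, against 25.6, 23.1 and 27.4 CPM in control replicates 1, 2 and 3. No OGD/R library reached the lowest control library. The means were 20.04 ± 0.854 CPM after OGD/R and 25.4 ± 2.13 CPM in control (SD, n = 3 each), a log2 fold change of -0.34 ± 0.09 (SE, edgeR adjusted p = 0.00266). The value ran from -0.40 to -0.28 over the alternatives, with adjusted p from 0.000753 to 0.0466. Of its exon bases 10.9% overlap exons of any other gene. The largest share is with MIR4435-2HG, a long noncoding RNA gene on the opposite strand, whose own value was 0.09 (edgeR adjusted p = 0.341).

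BAD (ENSG00000002330), which frees BAX and BAK by binding BCL2 and BCL-xL, had 17.4, 18.8 and 18.8 CPM in OGD/R replicates 1, 2 and 3, against 14.1, 18.9 and 14.9 CPM in control replicates 1, 2 and 3. Control replicate 2 lay with the OGD/R libraries, and the other two control libraries lay below. The value of 0.20 ± 0.10 did not pass (edgeR adjusted p = 0.168). Without control replicate 2 it was 0.34 and passed (edgeR adjusted p = 0.0156), so the call turned on this 1 library. Control replicate 2 also had the weakest trend with transcript length of the controls (rho of 0.04, against 0.44 and 0.29 in control replicates 1 and 3). With all libraries, the length- and GC-corrected value of BAD was 0.15 (edgeR adjusted p = 0.317). The part of length in these values was not tested. The control libraries of BAD had a coefficient of variation of 16.1%, where counting error at the lowest count gives 4.66%. Of its exon bases 23.7% overlap exons of any other gene. The largest share is with GPR137 on the opposite strand, at 0.10 (edgeR adjusted p = 0.247).

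BID (ENSG00000015475), which links death receptors to mitochondria once caspase-8 has cut it, had 54.2, 54.2 and 58.1 CPM in OGD/R replicates 1, 2 and 3, against 54.3, 54.8 and 56.3 CPM in control replicates 1, 2 and 3. The groups overlapped, and the value was 0.01 (95% interval -0.11 to 0.13, edgeR adjusted p = 0.946).

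The remaining members are more distant relatives. BCL2L12 (ENSG00000126453), described in glioma cells as an inhibitor of caspases, had 84.8, 88.9 and 88.2 CPM in OGD/R replicates 1, 2 and 3, against 67.6, 71.5 and 71.9 CPM in control replicates 1, 2 and 3. The groups lay far apart relative to their spread. The means were 87.3 ± 2.18 CPM after OGD/R and 70.3 ± 2.38 CPM in control (SD, n = 3 each), a log2 fold change of 0.31 ± 0.05 (SE, edgeR adjusted p = 9.47e-06), and the length- and GC-corrected value was 0.25. Of its exon bases, 33.1% overlap exons of any other gene. The largest share is with IRF3 on the opposite strand, the gene of an interferon regulatory factor. IRF3 rose too, at 126 CPM after OGD/R and 107 CPM in control (0.24 ± 0.05, adjusted p = 0.000103). How reads in the shared bases were counted is not stated, so the rise of BCL2L12 is uncertain in source. BCL2L13 (ENSG00000099968), a mitochondrial protein with a role in mitophagy, had 68.8 to 73.9 CPM after OGD/R and 67.9 to 72.1 CPM in control, with a value of 0.04 (edgeR adjusted p = 0.650).

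**Figure D2:**
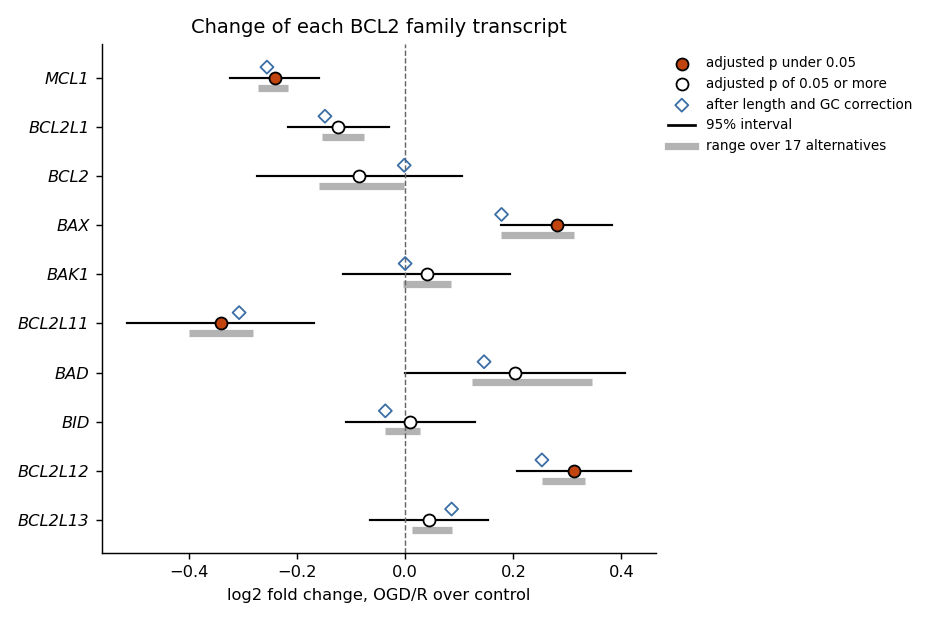
Log2 fold change of OGD/R over control for each member (circles, filled where the adjusted p is under 0.05) with its 95% interval, the value after the length and GC correction (diamonds) and the range over 17 alternatives (grey bars). The 4 filled circles keep their side of 0 over the grey bars, while the bars of BAK1 and BID cross it.

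Of the 10 members, 5 had groups that did not overlap, namely the 4 called genes and BCL2L1, where 33% of all genes did not overlap. Taking away any single library left MCL1, BAX, BCL2L11 and BCL2L12 called. Spread within a group was small for most members, with a coefficient of variation of 2.50% to 8.88% among OGD/R libraries and 1.94% to 16.1% among control libraries.

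Levels between genes were compared per kilobase of each gene's longest annotated transcript (GENCODE 29). On this scale MCL1 was highest, at 83.6 ± 3.10 CPM per kb after OGD/R and 98.9 ± 2.91 CPM per kb in control (SD, n = 3 each). BAX followed, at 72.3 ± 2.02 CPM per kb after OGD/R and 59.5 ± 2.79 CPM per kb in control. BCL2L1 had 48.4 ± 1.47 CPM per kb after OGD/R and 52.8 ± 2.72 CPM per kb in control. On this scale BAX and BCL2L1 were thus neighbours in control and lay further apart after OGD/R. The length of all annotated exons gave the reverse. With it BAX and BCL2L1 were at 31.2 and 41.6 CPM per kb in control, and at 37.95 and 38.15 CPM per kb after OGD/R.

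BCL2L12 came next, at 47.1 CPM per kb after OGD/R and 37.9 CPM per kb in control, and then BID, at 22.2 CPM per kb after OGD/R and 22.1 CPM per kb in control. BAD, BCL2L13 and BAK1 were at 13.3 to 15.9 CPM per kb after OGD/R and 13.0 to 13.8 CPM per kb in control, and in control these neighbours did not differ beyond their spread. BCL2L11, at 3.83 CPM per kb after OGD/R and 4.85 CPM per kb in control, and BCL2, at 2.33 CPM per kb after OGD/R and 2.47 CPM per kb in control, were lowest. MCL1 thus led and BCL2 came last of the 10, and in control MCL1 exceeded 97.3% of all genes with a length and BCL2 exceeded 35.8%. With the length of all annotated exons in place of the longest transcript, MCL1 stayed first and BCL2 last in control, while BAX moved to rank 4 behind BCL2L1 and BCL2L12.

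**Figure D3:**
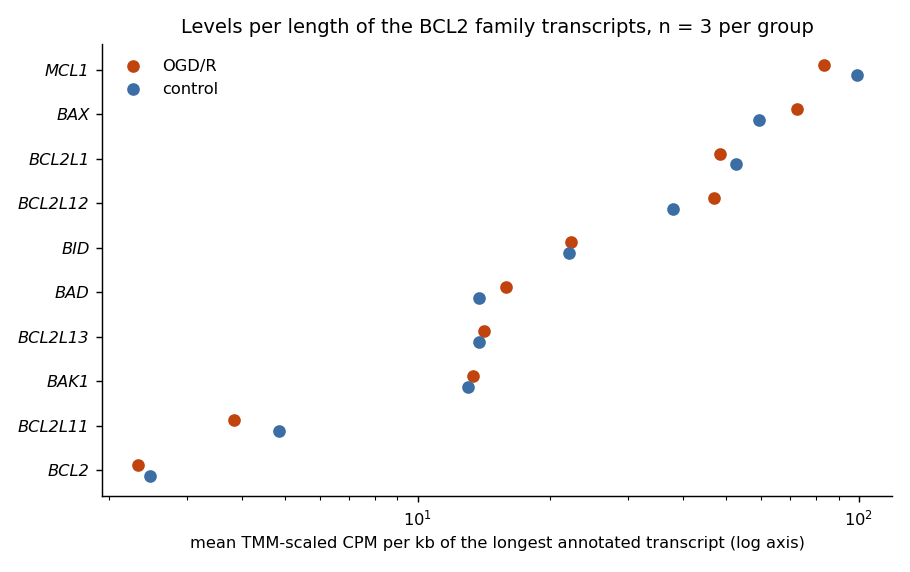
Mean level of each member per kilobase of its longest annotated transcript (TMM-scaled CPM per kb, log axis), after OGD/R and in control (n = 3 each). MCL1 is highest in both groups and BCL2 lowest, and BAX lies nearer to MCL1 after OGD/R.

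Because pore formers and guardians act by binding, the ratio of their transcripts is often reported. Raw count ratios within a library need no scaling between libraries, and they are given as a description with no test. The counts of BAX over those of MCL1 stood at 0.310, 0.277 and 0.310 in OGD/R replicates 1, 2 and 3, against 0.197, 0.210 and 0.217 in control replicates 1, 2 and 3. All 3 OGD/R ratios were above all 3 control ratios, and the mean ratio was 1.44 times the control mean. BAX over BCL2L1 averaged 0.777 ± 0.043 after OGD/R and 0.587 ± 0.022 in control (SD, n = 3 each), also with no overlap. Both separations follow from the levels of BAX, MCL1 and BCL2L1, whose groups already did not overlap, and are no further evidence.

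BAX over BCL2, a ratio much used as an apoptosis index, was 5.21, 5.90 and 5.93 in OGD/R replicates 1, 2 and 3, against 4.08, 4.73 and 4.37 in control replicates 1, 2 and 3. The groups were separate here as well, at 1.29 times the control mean. The log2 difference between the fitted changes of BAX and BCL2 was 0.37, and 0.18 after the length and GC correction. For BAX and MCL1 it was 0.52, and 0.43 after the correction. The rise of BAX relative to BCL2 thus shrank by more under the correction than the rise relative to MCL1 did. The BAX ratios share their numerator and are not independent of each other. BAK1, which did not pass, was also higher relative to MCL1 (1.22 times the control mean ratio) and to BCL2L1 (1.12 times). The groups did not overlap for either BAK1 ratio. The groups of BAK1 itself did overlap, so these separations follow mainly from the levels of MCL1 and BCL2L1 and are no further evidence.

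The BIM ratios went the other way or overlapped. BCL2L11 over MCL1 was 0.061 ± 0.0014 after OGD/R and 0.065 ± 0.0074 in control (SD, n = 3 each), and the groups overlapped since both genes fell. BCL2L11 over BCL2 was 1.16 ± 0.13 after OGD/R and 1.38 ± 0.079 in control, with OGD/R replicate 2, at 1.300, just under control replicate 2, at 1.304.

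**Figure D4:**
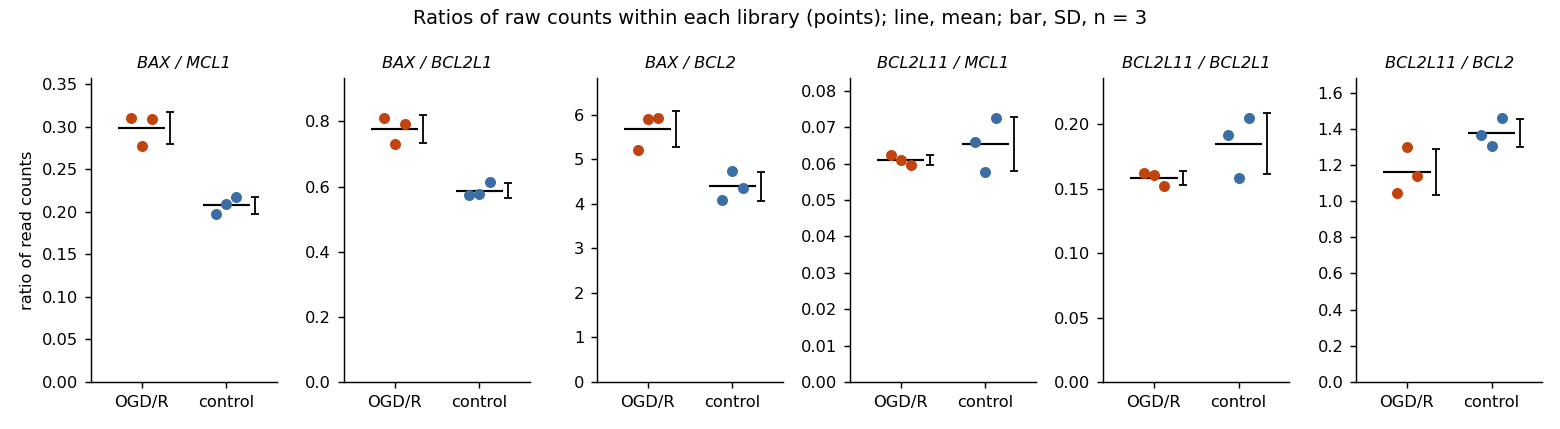
Ratios of raw read counts within each library for BAX and BCL2L11 over the guardians MCL1, BCL2L1 and BCL2, on axes that start at 0; points are libraries, lines are means and bars are the SD (n = 3). The BAX ratios are higher in the 3 OGD/R libraries, and BCL2L11 over MCL1 overlaps between the groups.

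Other genes of the family were measured beside the members. Of 13 such genes 10 had a value, and 3 rose and 2 fell. Over all genes 10.2% were called higher and 9.48% lower, shares to be read beside the counts of this list and those below. The list's median log2 fold change was 0.05, against -0.0046 over all genes. With only genes of at least 1 CPM in 3 libraries, the list's median was -0.02. BNIP3L, a mitophagy receptor with a BH3-like region, rose to 116 to 125 CPM after OGD/R, against 91.9 to 104 CPM in control (0.28 ± 0.05, edgeR adjusted p = 2.16e-05). Its relative BNIP3, a hypoxia-inducible gene, was at 67.5 to 70.05 CPM after OGD/R and 56.0 to 61.6 CPM in control (0.23 ± 0.06, adjusted p = 0.00215). Both BNIP3 genes thus rose with groups that did not overlap.

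The BH3-only gene BIK, whose protein sits in the endoplasmic reticulum, had 6.33, 6.17 and 6.17 CPM in OGD/R replicates 1, 2 and 3, against 4.35, 4.59 and 3.89 CPM in control replicates 1, 2 and 3 (0.54 ± 0.16, edgeR adjusted p = 0.0130). After the length and GC correction its adjusted p was 0.0909. HRK, a BH3-only gene best known in neurons, had 1.90, 2.38 and 2.83 CPM in OGD/R replicates 1, 2 and 3, against 3.12, 4.02 and 4.50 CPM in control replicates 1, 2 and 3 (-0.71 ± 0.22, adjusted p = 0.0145). BMF, a BH3-only gene tied to the cytoskeleton, was at 72.03 CPM after OGD/R and 81.5 CPM in control (-0.18 ± 0.05, adjusted p = 0.0129), and its call ended after the correction (adjusted p = 0.0667). BIK (adjusted p = 0.0672), BMF (0.0681) and HRK (0.115) lost their call without control replicate 3, and BMF also without OGD/R replicate 2 or 3 and HRK without OGD/R replicate 1.

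The stress-inducible BH3-only genes BBC3 (PUMA) and PMAIP1 (NOXA) did not pass. BBC3 was at 21.9 to 23.8 CPM after OGD/R and 18.7 to 22.4 CPM in control (0.12, edgeR adjusted p = 0.387), and without control replicate 1 its value was 0.04. PMAIP1 was at 60.3 to 61.0 CPM after OGD/R and 59.8 to 64.2 CPM in control (-0.02, adjusted p = 0.903). PMAIP1 passed as lower after the length and GC correction, at -0.16 (adjusted p = 0.0245). The guardian BCL2L2, which encodes BCL-W, had a value of -0.14 (adjusted p = 0.0856) and passed as lower with total counts only (-0.17, adjusted p = 0.0305). The pore-former relative BOK was at -0.06 (adjusted p = 0.520). BCL2L15 was under 1 CPM in every library and did not pass (0.79 ± 0.46, adjusted p = 0.2497). BCL2A1, BCL2L10 and BCL2L14 were not analysed here.

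Downstream of the pore, 6 of 9 measured genes of release factors, apoptosome and outer membrane channels rose and 0 fell by edgeR, with a median log2 fold change of 0.19. With length and GC trends removed, 5 rose and the median was 0.10. At an unadjusted p under 0.05 likewise 0 fell, and 0 with DESeq2 or limma-voom. VDAC1, the main outer membrane channel, was at 307 to 318 CPM after OGD/R and 270 to 277 CPM in control (0.20 ± 0.04, edgeR adjusted p = 0.000226), and its value was 0.10 after the length and GC correction (adjusted p = 0.0221). VDAC3 (0.22 ± 0.05) and CYCS, which encodes cytochrome c (0.19 ± 0.04, adjusted p = 0.000933), had the next smallest p. VDAC3 had a length- and GC-corrected value of 0.06 and no longer passed (adjusted p = 0.388). The other genes called were HTRA2, AIFM1 and VDAC2, and APAF1, the scaffold of the apoptosome, was at 0.08 (adjusted p = 0.322).

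Of 7 apoptotic caspase genes 1 fell by edgeR, where 9.48% of all genes did, and the list's median was 0.06. The caspase median turned to -0.01 once length and GC trends were removed, and leaving out control replicate 3 gave 0.0083. The gene that fell was CASP2, an initiator tied to DNA damage, at 95.7 to 102 CPM after OGD/R and 109 to 112 CPM in control (-0.16 ± 0.05, edgeR adjusted p = 0.0119), and its call ended without OGD/R replicate 2 and without control replicate 3. The initiator CASP9, which binds the apoptosome, was at -0.0092 (adjusted p = 0.9753). Among 5 inhibitor of apoptosis genes 2 rose and 1 fell, with a median of 0.05, or 0.01 after the correction. BIRC5 (survivin), which also serves mitosis, was at 194 to 203 CPM after OGD/R and 138 to 147 CPM in control (0.48 ± 0.04, adjusted p = 3.41e-12). BIRC3, an NF-kB target, rose (0.22 ± 0.04), and BIRC6 fell (-0.19 ± 0.05). BIRC6 had a length- and GC-corrected value of -0.07 and no longer passed (adjusted p = 0.237).

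On the death receptor side, 0 of 9 measured genes rose and 1 fell by edgeR, with a median of -0.03. Among all genes 10.2% rose and 9.48% fell. DESeq2 and limma-voom also gave 0 that rose. With upper-quartile scaling, the replicate block or only genes of at least 1 CPM in 3 libraries, 1 gene rose. The same held without OGD/R replicate 1 and without control replicate 2. At an unadjusted edgeR p under 0.05, 2 were higher, and TNFRSF10D, CFLAR and RIPK1 were lower. CFLAR, which encodes the caspase-8 inhibitor FLIP, was at 114 to 122 CPM after OGD/R and 129 to 130 CPM in control (-0.15 ± 0.05, edgeR adjusted p = 0.0161). It had a length- and GC-corrected value of -0.03 (adjusted p = 0.692). Its call also ended when OGD/R replicate 1, OGD/R replicate 2 or control replicate 3 was left out.

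Of 20 genes whose proteins act on MCL1, BAD or BIM, 6 rose and 2 fell, with a median of 0.06. The number that fell was 1 without any single OGD/R library or control replicate 1, and 0 without control replicate 3. Of the 7 genes of the 14-3-3 family among them, which bind phosphorylated BAD in the cytosol, YWHAQ (0.30 ± 0.04, edgeR adjusted p = 1.29e-07), YWHAE (0.28 ± 0.04) and YWHAZ (0.27 ± 0.04) had the smallest p. YWHAZ had 1184 to 1204 CPM after OGD/R and 969 to 1024 CPM in control. The fall among this family was that of YWHAG (-0.13 ± 0.04, adjusted p = 0.0138), and HUWE1, a ubiquitin ligase that marks MCL1 for degradation, was at -0.12 (adjusted p = 0.0218). YWHAG lost its call without OGD/R replicate 3 (adjusted p = 0.117) and control replicate 3 (0.0551). HUWE1 lost it without OGD/R replicate 1 or 2 and control replicate 1 or 3, and its sign turned after the length and GC correction, to 0.04 (adjusted p = 0.463). HUWE1 and YWHAG are named here after their values were seen.

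Of 10 transcription factor genes known to act on this family, 1 rose and 2 fell, beside 10.2% and 9.48% of all genes. The list's median was -0.06. With length and GC trends removed, 1 rose and 3 fell, with a median of -0.02. FOXO1, a factor that drives BCL2L11 in several cell types, had 6.39, 5.42 and 5.49 CPM in OGD/R replicates 1, 2 and 3, against 7.90, 8.58 and 9.06 CPM in control replicates 1, 2 and 3 (-0.56 ± 0.14, edgeR adjusted p = 0.00283). FOXO1 and BCL2L11 thus both fell, and no test of a link between them was made. MYC (-0.18 ± 0.06, adjusted p = 0.0191) was lower and STAT3 (0.12 ± 0.04, adjusted p = 0.0377) higher, and STAT3 lost its call with total counts only (adjusted p = 0.149) and when any library but control replicate 3 was left out. MYC lost it without OGD/R replicate 1 or 2 and without control replicate 2 or 3.

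**Figure D5:**
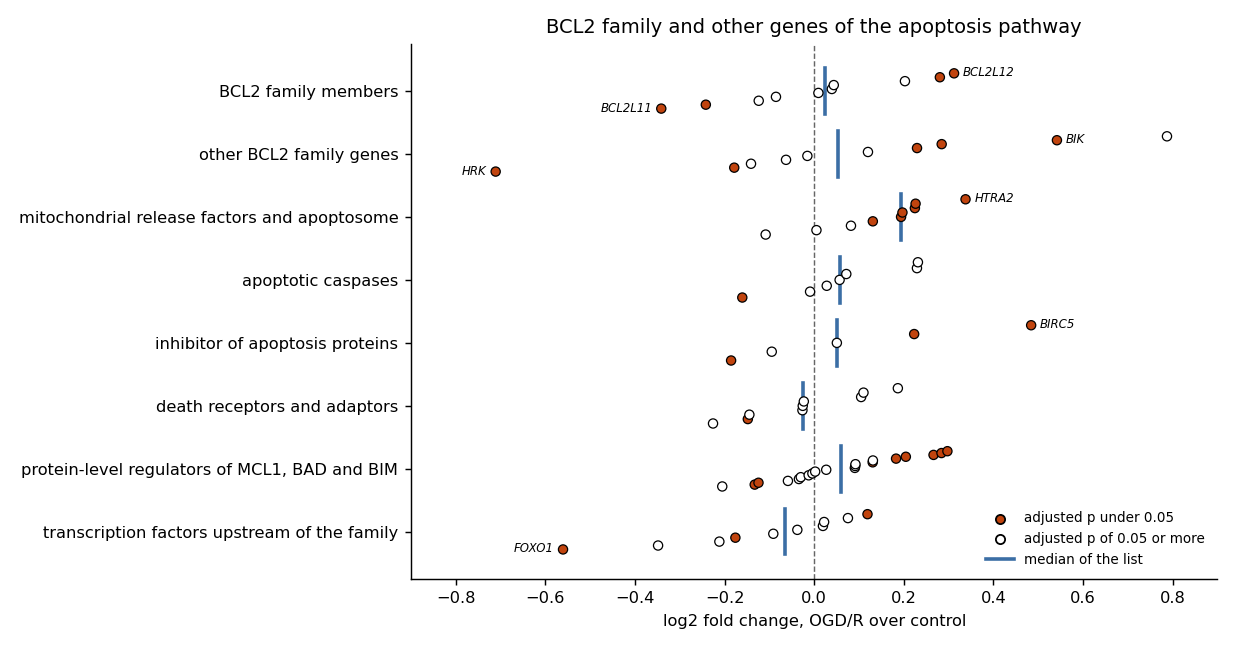
Log2 fold change of OGD/R over control for the 10 members and for 7 other lists of apoptosis genes; each point is a gene, filled where the adjusted p is under 0.05, and blue bars are list medians. The members fall on both sides of 0, and the list of mitochondrial release factors has 6 filled points above 0 and 0 below.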

How the data were processed

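RNA-seq libraries of HBMEC were prepared from total RNA (NEBNext Ultra), per the labels' protocols. The authors deposited whole-number read counts per human Ensembl gene. Per the submitters' processing notes, Trimmomatic, HISAT2, SAMtools, featureCounts and edgeR were used, with no versions, and the build given is GRCm38, a mouse build, so the build behind the counts is uncertain. No gene has under 10 counts in more than 3 of the libraries, so low genes seem to have been removed by a filter not stated. Symbols matched 17093 of 17104 IDs.

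Counts were scaled by TMM and tested over all genes with edgeR 4.0.16 in R 4.3.3 (quasi-likelihood, robust, no replicate block, two-sided, Benjamini-Hochberg adjustment, threshold 0.05). filterByExpr removed 0 genes. Standard errors came from the fold change and the F statistic. No pair of libraries differed as little as counting noise gives (chi-square per degree of freedom of 4.06 to 7.42 within a group). The length and GC correction took a smooth trend (mgcv 1.9.3) on GENCODE 29 transcripts, known for 96.6% of genes, out of each library. The other alternatives used other scalings, DESeq2 1.42.0, limma 3.58.1 (voom), filters, the replicate number as a block, and the data without each library or without mitochondrially encoded genes. The tests were also run on simulated counts with known changes, and the outcome is not reported here. Members, lists and the naming rule (every family gene, then up to 3 called genes of the smallest p per list) were chosen with earlier results of these data known, and genes named beyond the rule after their values were seen. Some genes of the lists are not reported here.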

Additional observations from a re-analysis of the deposited data

How the results depend on the processing

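The count of changed genes stayed within 1.5 times of 3370 under the 17 alternatives (2383 to 3529), and the members called were 2 or 3 higher and 2 or 3 lower. With total counts only, 39.7% of the changed genes were higher, against 51.9% with TMM, and the members called were 2 higher and 3 lower. Leaving the low-count filter out tested the same genes. MCL1, BAX, BCL2L11 and BCL2L12 were called in the same direction under each alternative. BCL2L1 became called under 5 of them and BAD under 1. Of the other lists, the number that fell ran from 0 to 3 for other BCL2 family genes and for death receptors and from 0 to 2 for the genes acting on MCL1, BAD or BIM, and 1 death receptor gene rose under at least 1 alternative. Among the genes named by the rule, signs turned for BAK1, BID and PMAIP1, all near 0 in the main fit. HUWE1, named beyond the rule, was called lower and turned after the length and GC correction. The length and GC correction put BAK1 at -0.00020, and it ran from -0.0048 to 0.084 without each library in turn. BID was at -0.021 with total counts only, -0.037 after the correction, -0.038 after it with the replicate block, and -0.026 to 0.027 without each library in turn. PMAIP1 ran from -0.032 to 0.021 without each library in turn. After the length and GC correction it was at -0.16 and called lower by edgeR, without the replicate block (adjusted p = 0.0245) and with it (adjusted p = 0.0202).

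The titles share replicate numbers, but same-numbered libraries did not deviate together (r = -0.00087, 0.083 and -0.0077 for numbers 1, 2 and 3), so the numbers are not taken as pairs. With the replicate block 3529 genes changed, and of the members again 2 were higher and 2 lower. The lowest counts of a member in any library were 460 for BAD and 493 for BCL2.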
